A study of Mus musculus with 19 samples.

Results

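Aid-Cre tumour spleens were compared with Mb1-Cre tumour spleens in a mouse model that expresses HGAL, a germinal centre adaptor protein of human B cells, from a conditional allele at the Rosa26 locus. The 9 arrays were chosen by their titles, 4 for Rosa26-HGAL+Aid-Cre mice with tumours and 5 for Rosa26-HGAL+Mb1-Cre mice with tumours, out of 19 arrays in all. The other arrays came from 4 tumour-bearing and 3 pre-tumoral Rosa26-HGAL+Sca1-Cre spleens and from 3 wild-type spleens, and they entered the fit only to estimate the spread between arrays. Every mouse in both tumour groups carried the HGAL allele and a Cre driver. Age, strain background, sex and the stage or histology of the tumours are not stated in the records at hand, and neither is whether a Cre allele disrupts the gene whose promoter it uses. The animals were kept in a conventional facility with exposure to common pathogens. Each array held total RNA of a whole spleen, and the arrays are labelled as biological replicates.

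As background, the Aid-Cre driver acts mainly in antigen-activated and germinal centre B cells. Mb1 is the B cell receptor chain CD79A, which is made from early B cell progenitors onward. HGAL, whose mouse counterpart is Gcsam, is known to strengthen B cell receptor signalling through the kinase Syk. A whole spleen also holds red pulp macrophages, T cells and, when blood formation moves there from the marrow, erythroid and granulocyte precursors. In whole-spleen RNA, fewer cells of a type and less RNA per cell cannot be told apart.

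The values are log2 expression per probe set after RMA, a method that corrects background, normalises the arrays to each other and summarises probes. All levels and differences below are on this log2 scale, and every difference is Aid-Cre minus Mb1-Cre, so that a negative value means lower in Aid-Cre. Array medians lay between 5.23 and 5.40, and the median gene had a mean of 5.60. Pearson correlations across genes were 0.929 to 0.989 among the 6 pairs of Aid-Cre arrays, 0.953 to 0.990 among the 10 pairs of Mb1-Cre arrays, and 0.935 to 0.990 between the groups. B cell genes were present in all 9 spleens: Cd79b, the partner chain of CD79A, ranged over 9.17 to 11.94 in Aid-Cre and 10.31 to 11.36 in Mb1-Cre. Y-linked transcripts were detected in 1 of 4 Aid-Cre arrays and 4 of 5 Mb1-Cre arrays, so the groups differ in sex as well as in driver. Exocrine pancreas genes were high in Mb1-Cre replicate 2, with a list mean of 7.21, against 4.61 to 4.72 in the 4 Aid-Cre arrays.

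Neither Gcsam nor Cd79a separated the groups. Gcsam measured 5.29, 5.19, 6.04 and 5.77 in the 4 Aid-Cre spleens, against 5.12, 5.90, 5.34, 5.60 and 5.65 in the 5 Mb1-Cre spleens. The difference was 0.05 ± 0.66 (SE), with a limma adjusted p of 0.989 and an exact two-sided permutation p of 0.825. The SE was 0.21 when the fit held only the 9 arrays compared (adjusted p = 0.976). The fit of all 19 includes a Sca1-Cre tumour spleen at 10.41, against 5.74 to 6.38 in the other 3 of its group. The probe set is annotated to the mouse gene, and whether it also reads the HGAL transgene is not given in the sources used here. Cd79a, the Mb1 gene itself, measured 11.02, 8.97, 12.34 and 12.11 in Aid-Cre, against 10.03, 11.26, 10.91, 9.89 and 10.76 in Mb1-Cre. Its difference was 0.54 ± 0.58 (SE), with a limma adjusted p of 0.832 and an exact permutation p of 0.460. The 4 Aid-Cre values enclosed all 5 Mb1-Cre values. With 4 and 5 arrays the number of possible splits is small, which limits how low the p of this permutation test can go.

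Of 22180 genes tested with limma, 10 passed a Benjamini-Hochberg adjusted p of 0.05, or 0.0451%. In Aid-Cre spleens 7 of these were lower (0.0316%) and 3 were higher (0.0135%). With quantile normalisation the split was 6 lower and 6 higher. Without adjustment 1942 genes (8.76%) had a p under 0.05, 958 of them lower in Aid-Cre and 984 higher. The groups did not overlap for 451 genes (2.03%), 208 lower (0.938%) and 243 higher (1.1%) in Aid-Cre, and all 10 called genes were among them. No call held in every leave-one-out fit: each of the 10 was called in 1 to 3 of 9 such fits, while its direction was the same in all of them. When the fit held only the 9 tumour arrays, 0 genes were called, the smallest adjusted p was 0.0768, and 1430 genes had an unadjusted p under 0.05. With a term for Y-linked signal, Ifi202b was the 1 gene called. Within arrays with Y-linked signal and within those without, all 10 kept their direction, and Apobec1 moved most, at 1.74 with it and 0.57 without.

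**Figure D1:**
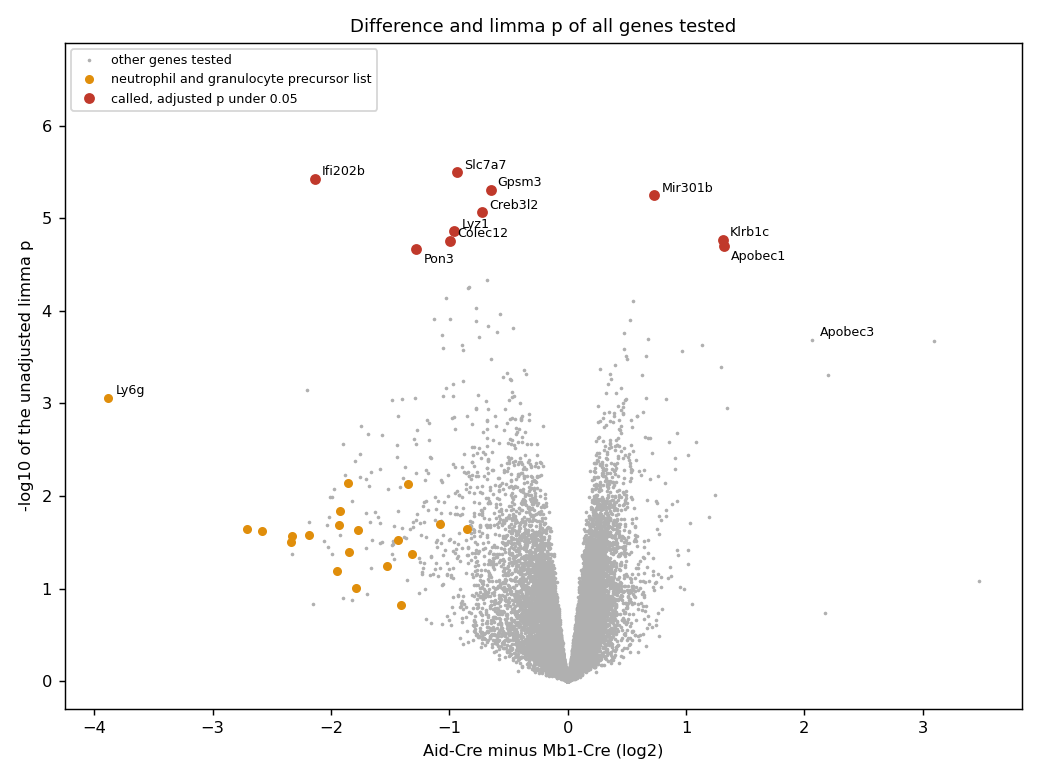
Each point is a gene, with the Aid-Cre minus Mb1-Cre difference (log2) across and -log10 of the unadjusted limma p upward; red points are the 10 called genes and orange points the neutrophil and granulocyte precursor list. All 20 orange points lie left of 0, and none is red.

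The called gene with the smallest p was Slc7a7, an exporter of cationic amino acids that macrophages and epithelia use. It measured 7.02, 7.04, 7.04 and 6.80 in Aid-Cre, against 7.90, 8.11, 7.81, 7.75 and 7.98 in Mb1-Cre. The difference was -0.93 ± 0.14 (SE, limma adjusted p = 0.0312), or 1.91-fold lower in Aid-Cre. All 15 other arrays of the series lay above the highest Aid-Cre value, including the wild-type spleens at 7.41 to 7.81. Counts of other arrays, here and for the called genes below, include the opposite tumour group, which did not overlap for any called gene.

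Gpsm3, which regulates heterotrimeric G proteins in leukocytes, measured 7.52, 7.59, 7.54 and 7.47 in Aid-Cre, against 8.30, 8.27, 8.14, 8.10 and 8.10 in Mb1-Cre. It fell by 0.65 on the log2 scale (SE 0.10, limma adjusted p = 0.0312). Here the Mb1-Cre group stood apart, since all 14 other arrays, the Sca1-Cre and wild-type arrays as well as Aid-Cre, lay below its lowest value. Wild-type spleens measured 7.73 to 8.01 and tumour-bearing Sca1-Cre spleens 7.56 to 7.79.

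Creb3l2 encodes a membrane-bound transcription factor of the endoplasmic reticulum that is cut loose under secretory load. It measured 6.83, 6.62, 6.68 and 6.75 in Aid-Cre, against 7.41, 7.46, 7.30, 7.40 and 7.66 in Mb1-Cre, a difference of -0.73 ± 0.11 (SE, limma adjusted p = 0.0380). Of the 14 other arrays, 13 were below every Mb1-Cre value. The other 4 measured genes of the Creb3 family were not called.

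Ifi202b, an interferon-inducible member of the p200 family, had the largest called difference, -2.14 ± 0.31 (SE, limma adjusted p = 0.0312). Its levels were 3.18, 3.39, 3.39 and 4.10 in Aid-Cre, against 6.44, 5.47, 5.11, 5.90 and 5.34 in Mb1-Cre. All Aid-Cre values lay in the low part of the array's range, and so did the Sca1-Cre tumours at 3.18 to 3.49 and the wild-type spleens at 3.59 to 4.66. Members of this family are close in sequence, as are Klr, Apol, Trim12 and Trim34 and Ly6 genes, and probe sets may not separate the copies.

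Lyz1, a lysozyme that breaks down bacterial cell walls, measured 5.60, 5.92, 5.82 and 5.27 in Aid-Cre, against 6.89, 6.43, 6.38, 6.81 and 6.53 in Mb1-Cre (difference -0.96 ± 0.16, SE; limma adjusted p = 0.0472). All 14 other arrays lay below the Mb1-Cre group. Its close copy Lyz2, the lysozyme of myeloid cells, had a difference of -0.60 ± 0.26 with an adjusted p of 0.526.

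Colec12, a scavenger receptor known from endothelium, measured 5.56, 5.99, 5.52 and 5.88 in Aid-Cre, against 6.99, 7.21, 6.23, 6.57 and 6.67 in Mb1-Cre (difference -0.99 ± 0.17, SE; limma adjusted p = 0.0472). Pon3, a lactonase of the paraoxonase family, measured 6.77, 6.31, 5.80 and 6.20 in Aid-Cre, against 7.46, 7.47, 7.31, 7.54 and 7.96 in Mb1-Cre (difference -1.28 ± 0.22, SE; limma adjusted p = 0.0472). For Pon3 the wild-type spleens, at 6.35 to 6.62, lay within the Aid-Cre range, and the Sca1-Cre tumours, at 7.10 to 8.29, spanned the Mb1-Cre range. For Colec12 it was the Sca1-Cre tumours that were close to Aid-Cre, at 5.79 to 6.08. The wild-type spleens, at 6.34 to 6.59 for this gene, lay within the Mb1-Cre range.

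Among the genes higher in Aid-Cre, Apobec1 encodes a cytidine deaminase best known for editing apolipoprotein B mRNA. It measured 9.83, 10.68, 10.55 and 10.11 in Aid-Cre, against 9.64, 8.80, 8.97, 8.65 and 8.81 in Mb1-Cre. The difference was 1.32 ± 0.22 (SE, limma adjusted p = 0.0472), or 2.49-fold. The other 15 arrays were all below the lowest Aid-Cre value, wild-type spleens at 8.66 to 9.15. Apobec3, a deaminase that restricts retroviruses, had a larger difference that was not called, 2.07 ± 0.44 (SE, adjusted p = 0.156). Its values were 10.16, 10.25, 10.67 and 10.37 in Aid-Cre, against 9.66, 8.10, 7.83, 7.71 and 8.16 in Mb1-Cre. The groups did not overlap, and the wild-type spleens, at 9.98 to 10.86, were as high as Aid-Cre.

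Klrb1c encodes the NK1.1 receptor of natural killer cells. It measured 5.11, 5.60, 5.30 and 5.68 in Aid-Cre, against 4.30, 4.91, 3.75, 4.05 and 3.55 in Mb1-Cre (difference 1.31 ± 0.22, SE; limma adjusted p = 0.0472). All 15 other arrays lay below the Aid-Cre group. The gene lay in the low part of the array's range, with group means of 5.42 and 4.11 against 5.60 for the median gene. It was not tested under the filters on low values. Klrb1c was the single called gene among the 16 measured of the NK and cytotoxic cell list. Of the other 15, 8 were lower and 7 higher in Aid-Cre, with a median difference of -0.02. Among these, 1 had an unadjusted limma p under 0.05, against 4.44% of all genes in its direction. It was the NK receptor gene Klre1, with a difference of 0.65 ± 0.30 (SE, limma adjusted p = 0.562).

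The third higher gene, the microRNA gene Mir301b, falls outside the rule by which genes were named and was picked after its values were seen. It measured 6.47, 6.46, 6.14 and 6.61 in Aid-Cre, against 5.88, 5.66, 5.68, 5.64 and 5.57 in Mb1-Cre (difference 0.73 ± 0.11, SE; limma adjusted p = 0.0312). A probe set of this kind reads the hairpin region or a longer transcript over it, not the mature microRNA. The hairpin is printed with its 5p arm in capitals, followed by 5p and then 3p mature arms with the seed marked (bases 2 to 8, in capitals), because Mir301b was the 1 called gene of the 4 measured in its family. The sequences are those of RefSeq on GRCm38.p6, where Mir301b lies at chr16:17124400-17124496 on the minus strand, 257 bases from the hairpin of Mir130b.
Mir301b hairpin: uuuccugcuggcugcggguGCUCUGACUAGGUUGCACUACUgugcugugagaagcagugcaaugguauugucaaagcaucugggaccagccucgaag
mmu-miR-301b-5p: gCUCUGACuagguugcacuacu
mmu-miR-301a-5p: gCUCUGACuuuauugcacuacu
mmu-miR-130b-5p: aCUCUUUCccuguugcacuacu
mmu-miR-301a-3p: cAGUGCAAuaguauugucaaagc
mmu-miR-130b-3p: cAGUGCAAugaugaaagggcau
mmu-miR-130a-3p: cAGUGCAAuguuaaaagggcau
The 5p arms of miR-301b and miR-301a have the same seed, and that of miR-130b differs. The 3p arms of miR-301a, miR-130b and miR-130a all have the seed AGUGCAA, and these letters also stand in the Mir301b hairpin, whose mature 3p arm is not printed here. Mir130b, the neighbour on the same strand, measured 4.23, 4.51, 4.62 and 4.23 in Aid-Cre, against 4.47, 4.54, 4.31, 4.27 and 4.04 in Mb1-Cre, and its difference was 0.07 ± 0.13 (adjusted p = 0.913). Mir301, the gene of miR-301a, had a difference of -0.12 ± 0.09 (adjusted p = 0.751), and Mir130a one of -0.31 ± 0.14 (adjusted p = 0.549).

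In the gene table's assembly, GRCm38.p6, 4 of the 10 called genes are on chromosome 6: Apobec1, Klrb1c, Creb3l2 and Pon3. That chromosome holds 1201 of the tested genes, or 5.41%. The remaining 6 called genes are on 6 different chromosomes.

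**Figure D2:**
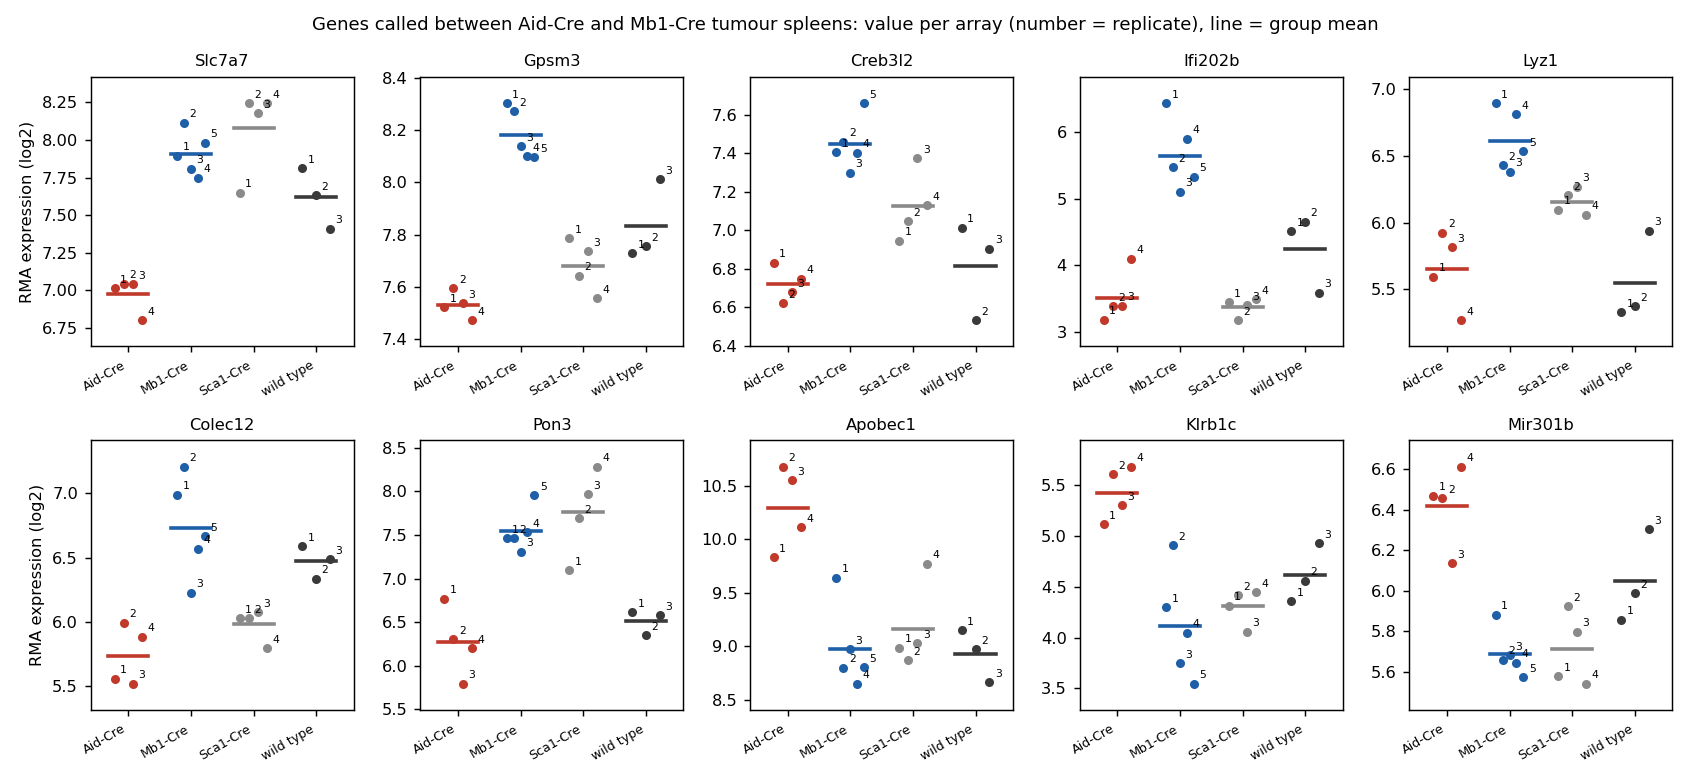
RMA expression (log2) of the 10 called genes in Aid-Cre, Mb1-Cre and Sca1-Cre tumour spleens and wild-type spleens; points are arrays with their replicate number and lines are group means. Aid-Cre and Mb1-Cre do not overlap in any panel. Slc7a7, Apobec1 and Klrb1c are the genes for which all 15 other arrays of the series lie on 1 side of the Aid-Cre group. The 15 include the 3 pre-tumoral Sca1-Cre arrays, which are not drawn.

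The largest differences below 0 were in neutrophil genes, but none of them was called. All 20 measured genes of the neutrophil and granulocyte precursor list were lower on average in Aid-Cre, with a median difference of -1.85, against 0.00918 over all genes, of which 47.5% were lower. Of the 20, 16 had an unadjusted p under 0.05, against 4.32% of all genes in that direction, and the smallest adjusted p was 0.271. Ly6g, the surface antigen that defines mouse neutrophils, measured 8.89, 8.43, 4.28 and 4.02 in Aid-Cre, against 9.90, 9.86, 10.19, 10.76 and 10.74 in Mb1-Cre. The difference was -3.88 ± 0.96 (SE, adjusted p = 0.271), and it was the only gene of the list whose groups did not overlap (0.938% of all genes did not overlap in that direction).

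The 4 Aid-Cre spleens differed widely among themselves. The list mean was 10.15 and 10.68 in Aid-Cre replicates 1 and 2, and 6.77 and 6.86 in replicates 3 and 4. The 5 Mb1-Cre spleens measured 10.42, 10.25, 10.12, 10.83 and 10.98. In each of Aid-Cre replicates 3 and 4 all 20 genes lay below every Mb1-Cre value, while this held for 4 genes in replicate 1 and 2 genes in replicate 2. In replicate 2, 6 genes lay above every Mb1-Cre value. Wild-type spleens ran from 7.55 to 9.35, between the high and the low Aid-Cre arrays. The difference of the list mean was -2.59 to -1.29 over the leave-one-out fits, -3.77 among arrays with Y-linked signal (1 Aid-Cre, 4 Mb1-Cre) and -1.19 among those without (3 Aid-Cre, 1 Mb1-Cre).

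The granule proteins showed the same split of arrays. Ltf (lactoferrin) measured 12.25, 12.06, 6.76 and 7.98 in Aid-Cre, against 12.56, 12.03, 12.08, 12.40 and 12.66 in Mb1-Cre. Camp (cathelicidin) measured 10.83, 10.91, 5.37 and 6.16 in Aid-Cre, against 11.23, 10.83, 10.58, 11.20 and 11.30 in Mb1-Cre. Ngp (neutrophilic granule protein) measured 12.54, 12.73, 8.29 and 9.36 in Aid-Cre, against 12.53, 12.55, 12.41, 12.68 and 12.70 in Mb1-Cre. Aid-Cre replicates 1 and 2 were level with Mb1-Cre in these genes, and replicates 3 and 4 were far below. Differences were -2.59 ± 1.04 for Ltf, -2.71 ± 1.08 for Camp and -1.84 ± 0.83 for Ngp (SE). None of the 3 was called, with adjusted p of 0.505 for Ltf and 0.540 for Ngp. Mmp8 (collagenase) and Retnlg (a resistin-like protein) had differences of -2.34 ± 0.99 and -2.19 ± 0.90.

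Other genes of the list were low in the same arrays. Elane, the neutrophil elastase of primary granules, measured 8.41, 10.29, 5.87 and 5.84 in Aid-Cre, against 8.51, 10.36, 8.53, 10.79 and 11.49 in Mb1-Cre (difference -2.33 ± 0.96, adjusted p = 0.509). Fcnb, a ficolin of marrow granulocytes, had a difference of -1.86 ± 0.61, Lcn2 (lipocalin) one of -1.92 ± 0.70 and Padi4 (the enzyme that citrullinates histones) one of -1.35 ± 0.44, with adjusted p of 0.395, 0.457 and 0.402. Chil1, a chitinase-like protein outside the list, measured 8.39, 8.74, 5.82 and 6.16 in Aid-Cre, against 9.30, 9.42, 9.04, 9.39 and 10.23 in Mb1-Cre (difference -2.20 ± 0.53, adjusted p = 0.267), with no overlap.

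**Figure D3:**
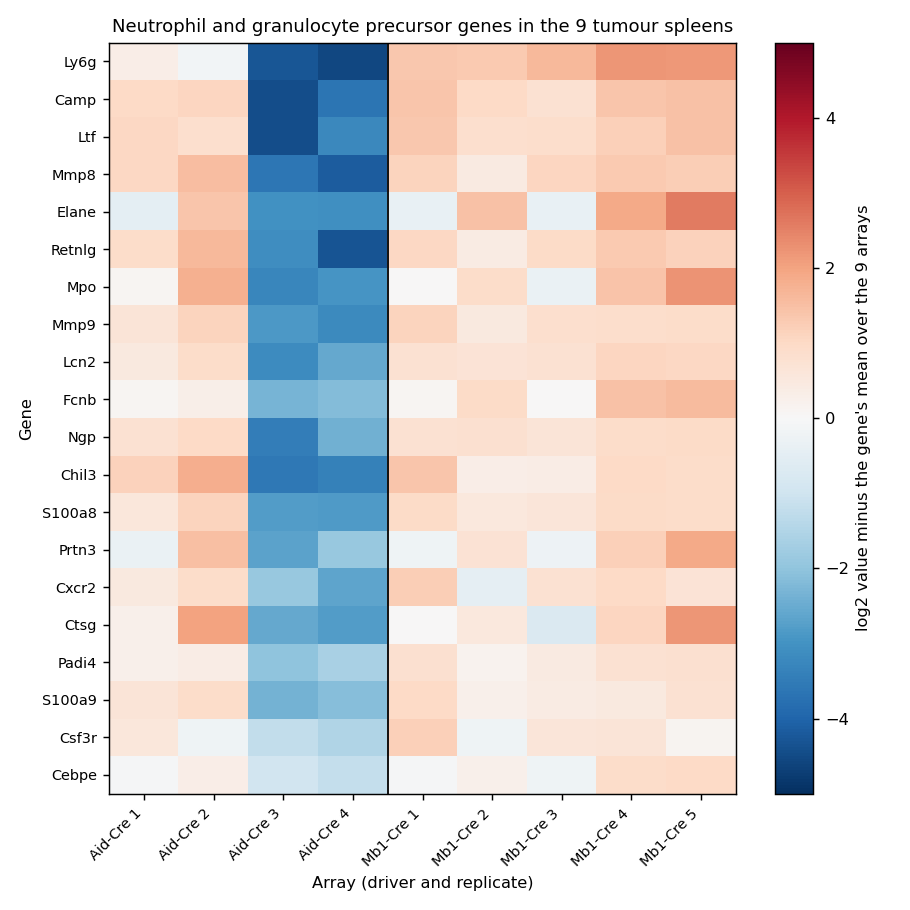
The 20 neutrophil and granulocyte precursor genes (rows) in the 4 Aid-Cre and 5 Mb1-Cre tumour spleens (columns); colour is the log2 value minus the gene's mean over the 9 arrays. Aid-Cre replicates 3 and 4 are blue in every row, and Aid-Cre replicates 1 and 2 look like the Mb1-Cre columns in most rows.

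Because these genes were lower together, their promoters were searched for the core of the site bound by C/EBP factors, which drive granulocyte genes. The letters were TTGCNNAA on either strand, within 250 bases before to 50 after the start of RefSeq transcripts (GRCm38.p6). They were found for 8 of 18 neutrophil genes with a promoter in the table (44.4%), namely Ly6g, S100a9, Ngp, Ltf, Lcn2, Mmp8, Retnlg and Fcnb, and for 1983 of 16990 tested genes (11.7%). Of the called genes, 3 of 8 with a promoter held them: Lyz1, Pon3 and Slc7a7. The 250 bases before the start are printed 5′ to 3′ for Ly6g, Ltf and Ngp, neutrophil genes with a match whose value in every array is given above, and for the called gene Lyz1, with the matches in capitals.
Ly6g (chr15:75155011-75155260, plus strand): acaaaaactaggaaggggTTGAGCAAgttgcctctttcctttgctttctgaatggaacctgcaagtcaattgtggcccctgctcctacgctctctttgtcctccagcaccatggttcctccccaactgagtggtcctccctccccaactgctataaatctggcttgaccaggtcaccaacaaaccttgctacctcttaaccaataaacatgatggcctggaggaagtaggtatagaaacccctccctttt
Ltf (chr9:111019042-111019291, plus strand): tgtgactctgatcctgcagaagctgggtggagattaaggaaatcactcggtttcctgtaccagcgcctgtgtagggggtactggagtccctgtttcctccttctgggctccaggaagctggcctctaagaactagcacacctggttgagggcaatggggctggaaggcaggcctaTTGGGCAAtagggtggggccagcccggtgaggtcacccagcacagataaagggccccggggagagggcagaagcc
Ngp (chr9:110419558-110419807, plus strand): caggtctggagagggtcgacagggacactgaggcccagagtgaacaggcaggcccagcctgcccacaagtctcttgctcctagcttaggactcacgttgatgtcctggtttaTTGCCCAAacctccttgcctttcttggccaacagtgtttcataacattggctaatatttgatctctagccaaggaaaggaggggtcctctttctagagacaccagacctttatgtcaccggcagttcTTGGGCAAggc
Lyz1 (chr10:117292869-117293118, minus strand): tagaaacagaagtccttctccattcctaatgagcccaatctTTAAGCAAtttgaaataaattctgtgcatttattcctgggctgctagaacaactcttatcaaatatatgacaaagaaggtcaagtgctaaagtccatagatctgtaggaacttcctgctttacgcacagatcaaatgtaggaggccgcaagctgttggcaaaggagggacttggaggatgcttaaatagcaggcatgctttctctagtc
The match begins 232 bases before the start printed for Ly6g, 75 in Ltf and 209 in Lyz1, while Ngp has a pair of matches, at 138 and 11 bases. A gene with several start sites was counted if any of them had a match. Start site 2 of Ly6g, which is not printed, had 0 matches, and Slc7a7 had a match at start site 4 only. A match is a description of these letters and no evidence of binding.

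Monocyte genes were lower in Aid-Cre, and their list mean was less split between arrays than that of neutrophil genes. It was 8.47, 8.81, 8.42 and 7.82 in Aid-Cre, against 9.56, 8.69, 8.87, 8.92 and 8.82 in Mb1-Cre, where replicate 1 was highest. Of 12 measured genes 11 were lower, with a median difference of -0.62. Of these, 4 had an unadjusted limma p under 0.05, against 4.32% of all genes in that direction, but none was called. Ly6c2, the antigen of inflammatory monocytes, measured 10.76, 11.27, 10.35 and 9.82 in Aid-Cre, against 11.39, 11.62, 11.18, 11.66 and 11.68 in Mb1-Cre (difference -0.95 ± 0.29, SE; adjusted p = 0.378). Ccr2, the receptor that draws monocytes out of the marrow, measured 7.85, 8.19, 7.28 and 6.43 in Aid-Cre, against 8.96, 7.90, 8.30, 8.76 and 8.61 in Mb1-Cre (difference -1.07 ± 0.35; adjusted p = 0.388). In both genes a single pair of arrays overlapped. Itgam, the CD11b integrin chain of myeloid cells, had a difference of -1.31 ± 0.51 (adjusted p = 0.492). Unlike the list mean, it was split as the neutrophil genes were, at 10.37, 10.74, 8.40 and 7.80 in Aid-Cre. Ccr1, a chemokine receptor of myeloid cells that is not in the monocyte list, also had its low values in Aid-Cre replicates 3 and 4. It measured 8.26, 9.32, 6.19 and 5.87 in Aid-Cre, against 9.16, 8.64, 9.70, 8.94 and 9.41 in Mb1-Cre.

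Macrophage and red pulp genes leaned the same way: 20 of 21 were lower in Aid-Cre, with a median difference of -0.50. Of these, 3 had an unadjusted limma p under 0.05, against 4.32% of all genes in that direction, and none was called. Vsig4, the complement receptor of tissue macrophages, measured 3.75, 3.84, 3.50 and 3.58 in Aid-Cre, against 4.77, 4.65, 3.81, 4.43 and 4.55 in Mb1-Cre, all in the low part of the array's range (difference -0.77 ± 0.16; adjusted p = 0.135). Slc40a1, the iron exporter ferroportin, measured 8.93, 9.12, 8.25 and 7.60 in Aid-Cre, against 9.92, 9.86, 8.96, 9.26 and 9.72 in Mb1-Cre (difference -1.07 ± 0.41; adjusted p = 0.486). Treml4, a receptor that binds dying cells, had a difference of -0.91 ± 0.34 (adjusted p = 0.473). The list mean was highest in Mb1-Cre replicates 1 and 2, at 8.20 and 8.26, against 6.98 to 7.49 in the other Mb1-Cre arrays and 6.72 to 7.64 in Aid-Cre. The part that this list has in the differences of Slc7a7, Lyz1 and Colec12 was not tested.

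Of 10 measured mast cell and basophil genes, 8 were lower in Aid-Cre, with a median difference of -0.26 and no calls. Hdc, which makes histamine, measured 8.58, 8.89, 6.98 and 6.36 in Aid-Cre, against 9.75, 8.12, 9.02, 8.84 and 8.99 in Mb1-Cre. Cpa3, a mast cell protease, had a difference of -1.24 ± 0.59, and Mcpt8, a basophil protease, one of -1.36 ± 0.73 (adjusted p of 0.575 and 0.625). Aid-Cre replicate 2 was within the Mb1-Cre range for all 3 genes, and replicate 4 was below it.

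**Figure D4:**
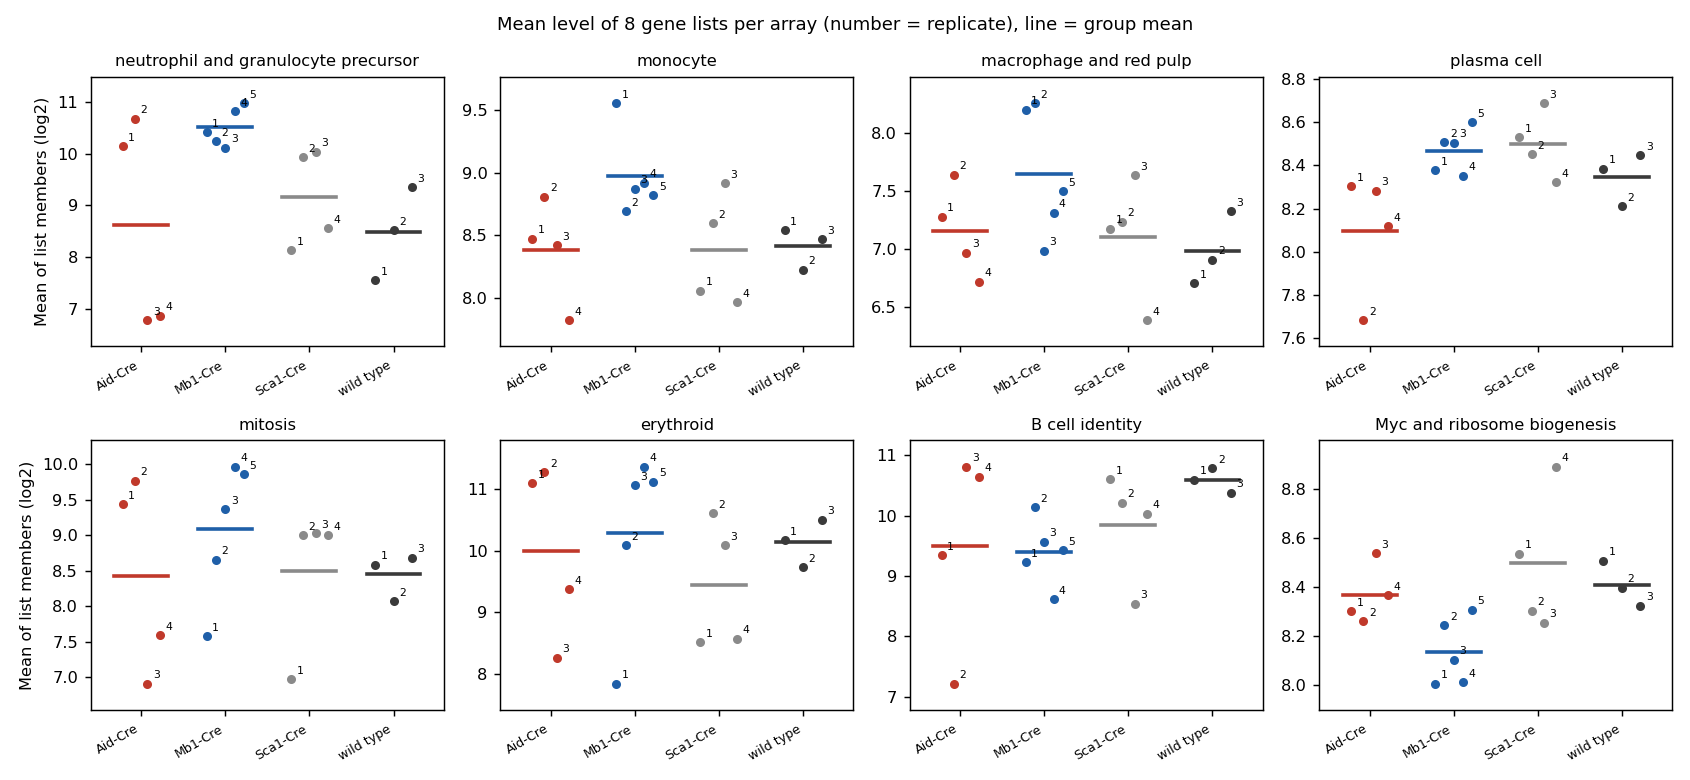
Mean level (log2) of 8 gene lists in each array, with replicate numbers and group means as lines, for Aid-Cre, Mb1-Cre and Sca1-Cre tumour spleens and wild-type spleens. Aid-Cre replicates 3 and 4 are low for neutrophil, mitosis and erythroid genes and high for B cell identity, and the plasma cell mean of every Aid-Cre array lies below that of every Mb1-Cre array.

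Plasma cell genes were lower in Aid-Cre, and here the list means of the groups did not overlap, in 1 of 32 lists described. The plasma cell list mean was 8.30, 7.68, 8.28 and 8.12 in Aid-Cre, against 8.38, 8.51, 8.50, 8.35 and 8.60 in Mb1-Cre. Of 15 measured genes 13 were lower, with a median difference of -0.32. Of these, 5 had an unadjusted limma p under 0.05, against 4.32% of all genes in that direction, and none was called. The groups did not overlap for 1 of the 15 genes, against 0.938% of all genes in that direction. The closest arrays were Aid-Cre replicate 1 and Mb1-Cre replicate 4, and Aid-Cre replicate 2 had 14 of 15 genes below every Mb1-Cre value.

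Xbp1, the transcription factor that builds the secretory apparatus of plasma cells, measured 9.68, 9.61, 9.18 and 8.65 in Aid-Cre, against 10.13, 9.81, 9.88, 10.07 and 9.97 in Mb1-Cre. The difference was -0.69 ± 0.17 (SE, adjusted p = 0.272), with no overlap. Sdf2l1, an endoplasmic reticulum chaperone partner, measured 7.58, 7.21, 7.33 and 7.02 in Aid-Cre, against 7.96, 7.75, 7.97, 8.37 and 8.40 in Mb1-Cre (difference -0.81 ± 0.21; adjusted p = 0.298), also with no overlap. Jchain, which joins IgM and IgA polymers, had a difference of -0.57 ± 0.22 (adjusted p = 0.480), and Ell2, an elongation factor for secreted immunoglobulin mRNA, one of -0.31 ± 0.15 (adjusted p = 0.576).

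Derl3, a protein of endoplasmic reticulum degradation, measured 6.80, 5.75, 6.43 and 6.47 in Aid-Cre, against 6.49, 7.19, 7.57, 7.67 and 7.72 in Mb1-Cre (difference -0.97 ± 0.29; adjusted p = 0.377). Creld2, a secreted stress-response protein, measured 8.74, 7.99, 8.18 and 8.31 in Aid-Cre, against 9.14, 8.56, 9.54, 9.06 and 9.05 in Mb1-Cre (difference -0.76 ± 0.24; adjusted p = 0.379). A single Mb1-Cre array was inside the Aid-Cre range for each gene. In the unfolded protein response list 10 of 15 genes were lower and 5 higher in Aid-Cre, with a median difference of -0.10. An unadjusted limma p under 0.05 was found for 3 lower and 1 higher gene, against 4.32% and 4.44% of all genes in those directions. The groups did not overlap for 2 lower genes, against 0.938% of all genes in that direction, and no gene of the list was called. Xbp1 and Creld2 are in this list and in the plasma cell list, so the counts of the 2 lists share these genes and are not independent. Trib3, a pseudokinase induced by stress, was among the higher ones, through Aid-Cre replicate 2 at 7.35 against 5.23 to 5.61 in the other Aid-Cre arrays and 4.90 to 5.33 in Mb1-Cre.

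Promoters of these genes were searched for the endoplasmic reticulum stress element, CCAAT and CCACG with 9 bases of any kind between them, on either strand in the same window. It was found for 6 of 14 unfolded protein response genes with a promoter (42.9%: Hspa5, Hsp90b1, Dnajc3, Pdia6, Calr and Creld2), for 2 of 14 plasma cell genes (14.3%: Derl3 and Creld2), and for 29 of 16990 tested genes (0.171%). The promoters of the 2 genes named above that hold it are printed with the element in capitals; it lies on the strand opposite to the gene.
Creld2 (chr15:88819396-88819645, plus strand): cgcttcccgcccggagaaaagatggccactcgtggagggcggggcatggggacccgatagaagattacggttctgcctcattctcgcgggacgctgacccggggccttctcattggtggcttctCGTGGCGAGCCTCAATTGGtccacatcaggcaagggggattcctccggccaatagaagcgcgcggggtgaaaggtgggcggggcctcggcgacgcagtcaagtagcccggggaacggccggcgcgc
Derl3 (chr10:75893148-75893397, plus strand): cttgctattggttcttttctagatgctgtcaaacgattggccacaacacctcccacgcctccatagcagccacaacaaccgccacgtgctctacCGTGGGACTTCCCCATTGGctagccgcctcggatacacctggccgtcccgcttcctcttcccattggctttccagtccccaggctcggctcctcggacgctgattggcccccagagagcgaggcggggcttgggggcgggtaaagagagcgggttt
In Derl3 the element begins 156 bases before the start. It was not found in the windows of Xbp1, Sdf2l1 or Creb3l2.

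Proliferation genes differed more between arrays of a group than between the groups. All 25 measured mitosis genes were lower on average in Aid-Cre, with a median difference of -0.70, and so were all 27 DNA replication genes, with a median of -0.32. None of them had an unadjusted p under 0.05. The mitosis list mean was 9.44, 9.77, 6.91 and 7.60 in Aid-Cre, against 7.58, 8.66, 9.37, 9.96 and 9.86 in Mb1-Cre. Aid-Cre replicate 3 had all 25 genes, and replicate 4 had 14, below every Mb1-Cre value, while replicates 1 and 2 had 0. Mki67, the proliferation marker, measured 12.13, 12.21, 9.64 and 10.65 in Aid-Cre, against a lowest value of 9.87 and a highest of 12.23 in the 5 Mb1-Cre spleens (difference -0.40 ± 0.66; adjusted p = 0.902). Its difference was 0.11 without Aid-Cre replicate 3. Kif20a, a kinesin of cytokinesis, had a difference of -0.97 ± 0.60, and Cdc45, a part of the replicative helicase, one of -0.56 ± 0.46 (adjusted p of 0.677 and 0.774). Among arrays with no Y-linked signal (3 Aid-Cre against 1 Mb1-Cre) the mitosis mean difference was 1.35, and among those with it (1 against 4) it was -2.55, so the direction rested on which arrays were compared.

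Erythroid genes followed the same arrays. The list mean was 11.09, 11.28, 8.26 and 9.37 in Aid-Cre, against 7.84, 10.09, 11.06, 11.37 and 11.12 in Mb1-Cre. Of 19 measured genes 18 were lower in Aid-Cre, with a median difference of -0.29, and none had an unadjusted p under 0.05. Klf1, the master regulator of erythroid genes, measured 9.41, 9.78, 6.08 and 6.89 in Aid-Cre, against 5.60, 8.61, 9.77, 10.52 and 10.12 in Mb1-Cre (difference -0.88 ± 1.02; adjusted p = 0.850). Mb1-Cre replicate 1 had the lowest value of all 9 spleens for this gene and for the list mean. Leaving out single arrays moved the difference of the list mean between -0.91 and 0.28.

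Ribosome biogenesis and Myc-related genes leaned the other way. Of 19 measured genes 16 were higher in Aid-Cre, with a median difference of 0.28; 7 had an unadjusted p under 0.05, against 4.44% of all genes in that direction, and none was called. The list mean was 8.30, 8.26, 8.54 and 8.37 in Aid-Cre, against 8.01, 8.24, 8.10, 8.01 and 8.31 in Mb1-Cre. Only Mb1-Cre replicate 5 reached into the Aid-Cre range. Gnl3, the nucleolar GTPase nucleostemin, measured 8.71, 9.11, 8.88 and 8.61 in Aid-Cre, against 7.89, 8.28, 8.39, 8.26 and 8.62 in Mb1-Cre (difference 0.54 ± 0.17; adjusted p = 0.379). Polr1a, the large subunit of RNA polymerase I, measured 8.14, 8.20, 8.39 and 8.26 in Aid-Cre, against 7.79, 8.03, 7.94, 7.76 and 8.02 in Mb1-Cre (difference 0.34 ± 0.12; adjusted p = 0.436), with no overlap. Ncl, nucleolin, had a difference of 0.39 ± 0.15 (adjusted p = 0.483). The difference of the list mean was 0.17 to 0.27 over the 9 leave-one-out fits, and 0.37 and 0.30 among arrays with and without Y-linked signal.

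B cell genes had a median difference near 0 and spread more widely in Aid-Cre. The B cell identity list had 8 genes lower and 10 higher of 18, with a median difference of 0.03. Its mean was 9.34, 7.22, 10.81 and 10.64 in Aid-Cre, against 9.23, 10.13, 9.57, 8.61 and 9.43 in Mb1-Cre, an SD of 1.66 in Aid-Cre and 0.55 in Mb1-Cre. Aid-Cre replicate 3 had all 18 genes above every Mb1-Cre value, replicate 4 had 17 above, and replicate 2 had 17 below. Within Aid-Cre, replicates 3 and 4 had the higher B cell means and the lower neutrophil, mitosis and erythroid means. Mb1-Cre replicate 1, with the lowest erythroid mean of the 9 spleens, had a B cell mean inside the range of its group. All lists were read from the same RNA of a spleen and are not independent. Ly6d, a marker of B lineage cells, measured 8.64, 7.70, 10.49 and 9.79 in Aid-Cre, against 8.32, 9.83, 7.50, 7.16 and 9.36 in Mb1-Cre (difference 0.72 ± 0.62; adjusted p = 0.783). B cell receptor signalling genes had 5 lower and 12 higher of 17 (median 0.05), and marginal zone genes 7 and 7 of 14 (median 0.07).

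The lists closest to the stages at which the drivers act showed no lean. Pro-B and pre-B cell genes, the stage at which Mb1 comes on, had 7 lower and 7 higher of 14 in Aid-Cre, with a median difference of 0.00. Vpreb2, a surrogate light chain gene, measured 6.39, 6.59, 6.28 and 6.48 in Aid-Cre, against 6.40, 6.03, 6.10, 6.12 and 6.02 in Mb1-Cre (difference 0.30 ± 0.10; adjusted p = 0.402). Erg, a transcription factor shared with stem cells and granulocyte precursors, had a difference of -1.20 ± 0.50 (adjusted p = 0.511), again through low values in Aid-Cre replicates 3 and 4, at 4.72 and 5.30. Germinal centre B cell genes, the stage at which Aid-Cre acts, had 7 lower and 6 higher of 13, with a median difference of -0.05. Their list mean was 6.08 to 6.36 in Aid-Cre and 6.08 to 6.42 in Mb1-Cre.

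In the remaining lists no gene was called, and medians lay within 0.22 of 0 apart from exocrine pancreas. T cell genes had 6 lower and 10 higher of 16 (median 0.10), T follicular helper and checkpoint genes 9 and 5 of 14 (median -0.06), and dendritic cell genes 9 and 6 of 15 (median -0.01). MHC class II presentation had 8 lower and 3 higher of 11 (median -0.04), type I interferon response 9 and 9 of 18 (median -0.03), and interferon gamma response 7 and 11 of 18 (median 0.22). NF-kB genes had 9 lower and 11 higher of 20 (median 0.01), p53 targets 6 and 6 of 12 (median 0.02), and immediate early genes 5 and 11 of 16 (median 0.18). Oxidative phosphorylation had 11 lower and 7 higher of 18 (median -0.07), glycolysis 10 and 3 of 13 (median -0.09), and chemokines and receptors 16 and 11 of 27 (median -0.05). Megakaryocyte genes had 7 lower and 5 higher of 12 (median -0.06), stem and progenitor genes 9 and 4 of 13 (median -0.05), and endothelium and stroma 13 and 5 of 18 (median -0.10). Exocrine pancreas genes had 16 lower of 17 (median -0.56), and without Mb1-Cre replicate 2, where they were high, the difference of the list mean was 0.01.

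**Figure D5:**
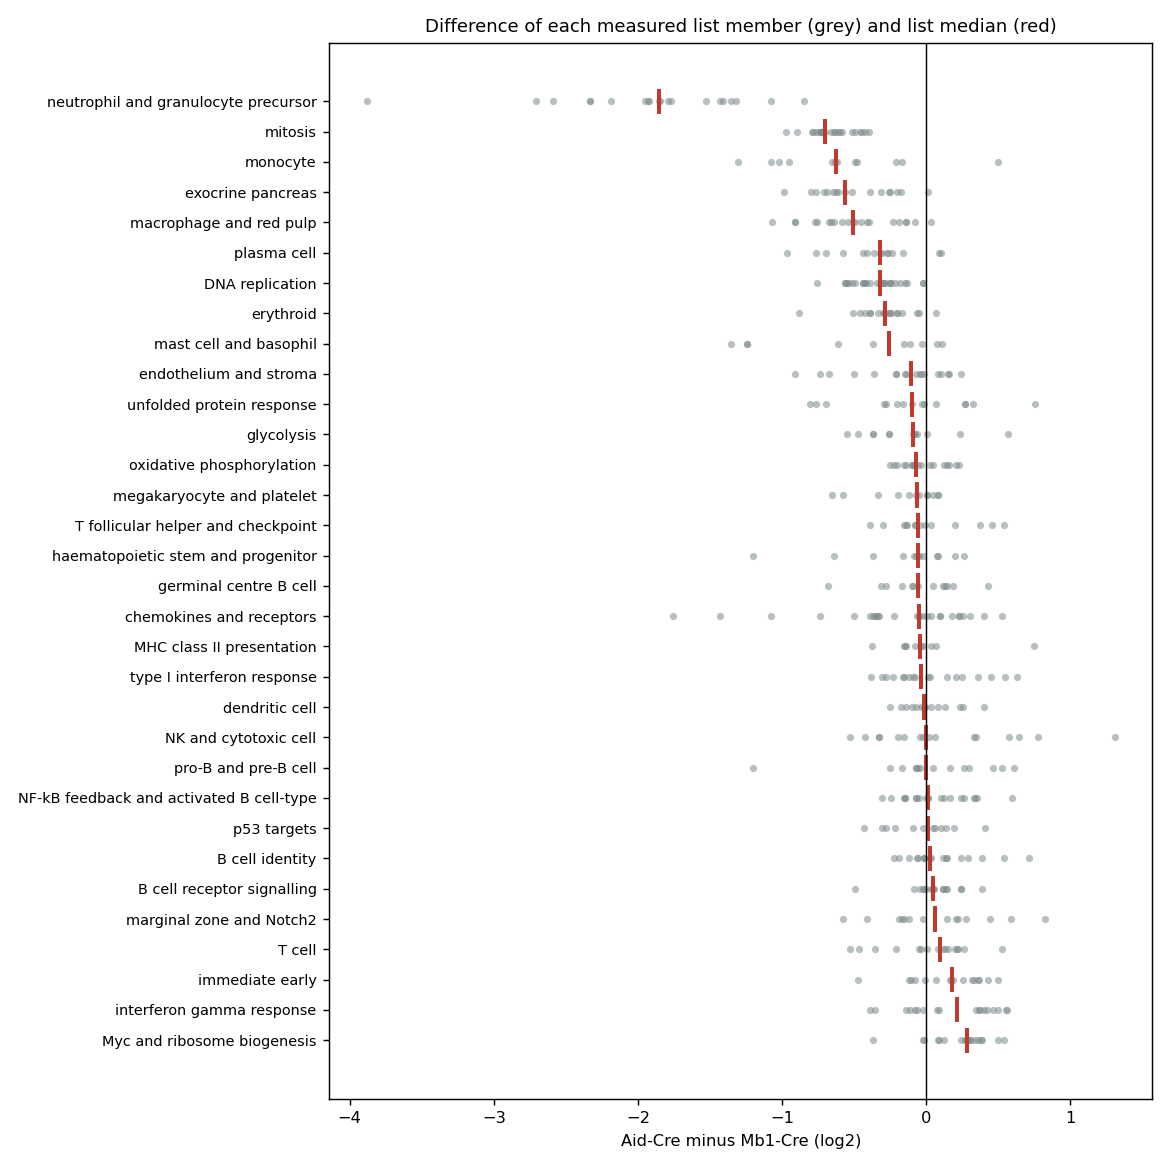
Aid-Cre minus Mb1-Cre difference (log2) of each measured member (grey) of 32 gene lists, with the list median in red, ordered by the median. Neutrophil genes reach furthest to the left, and the ribosome biogenesis list has the highest median, at 0.28.

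Below the called genes, the next smallest p lower in Aid-Cre belonged to Triobp, an actin-bundling protein, P2ry6, a receptor for UDP, and Ebi3, a subunit of interleukin 27. Their differences were -0.68 ± 0.12, -0.83 ± 0.15 and -0.84 ± 0.16 (SE), with adjusted p of 0.0937, 0.0957 and 0.0957, and none of the 3 overlapped between groups. Ebi3 measured 6.84, 7.28, 6.79 and 6.54 in Aid-Cre, against 7.48, 7.80, 7.78, 7.70 and 7.75 in Mb1-Cre. Higher in Aid-Cre, and also not called, were Ctrcos, Rnf7 (a RING subunit of ubiquitin ligases), Brf1 (a subunit of the RNA polymerase III factor TFIIIB), Fam204a, Apobec3, Per1 (a repressor of the circadian clock), Lcor (a nuclear receptor corepressor) and Ptar1. Their differences ran from 0.47 for Brf1 to 2.07 for Apobec3, with adjusted p of 0.115 to 0.179. Per1 measured 8.56, 9.95, 8.84 and 9.08 in Aid-Cre, against 8.60, 7.81, 7.93, 7.73 and 7.80 in Mb1-Cre, where replicate 1 stood above the rest.

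Some of the largest differences came from a few arrays. H2-Ea, an MHC class II alpha chain that some mouse strains lack, measured 3.72, 4.03, 4.19 and 4.29 in Aid-Cre, against 4.17, 10.79, 4.19, 8.76 and 4.01 in Mb1-Cre. Of the 9 tumour spleens, Mb1-Cre replicates 2 and 4 were high. Outside them the pre-tumoral Sca1-Cre spleens were high, at 10.31 to 10.65, while the Sca1-Cre tumours, at 3.82 to 4.13, and the wild-type spleens, at 3.71 to 4.22, were low. Apol11a, an apolipoprotein L gene, measured 10.27, 11.48, 3.86 and 5.87 in Aid-Cre, against 5.57, 3.53, 3.31, 8.04 and 8.02 in Mb1-Cre (difference 2.17 ± 1.57; adjusted p = 0.733). Apol10a had the same high arrays in Aid-Cre, 6.49 and 8.23, against 3.92 and 4.21 in the other Aid-Cre arrays and 4.11 to 5.50 in Mb1-Cre. Lynx1, which tunes nicotinic receptors, had a difference of 1.19 ± 0.45 (adjusted p = 0.480). By contrast, Trim34a and Trim12a, tripartite motif genes, did not overlap between groups. Trim34a measured 8.43, 8.33, 9.30 and 8.38 in Aid-Cre, against 8.10, 7.75, 7.24, 6.60 and 6.89 in Mb1-Cre (difference 1.29 ± 0.29; adjusted p = 0.213), with wild-type spleens at 8.16 to 8.68. Trim12a had a difference of 1.09 ± 0.31 (adjusted p = 0.343).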

How the data were processed

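Per the labels, Trizol was used to extract total RNA of 19 whole mouse spleens, which was biotin-labelled for Affymetrix arrays. The authors' deposited table holds log2 values for each probe set, for which the submitters' processing notes name RMA and the package oligo; versions and the annotation build are not given in the sources used. Values ran from 2.23 to 13.84 and were used as deposited. Of 41345 probe sets, 23521 carried 1 gene symbol, 1814 several and 16010 none; 23328 were found in the GRCm38.p6 gene table through their identifiers (0 symbols changed). For 1082 genes with several probe sets the 1 with the highest mean was kept, leaving 22180 genes. Groups were taken from the array titles.

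One mean per group was fitted to all 19 arrays with limma 3.58.1 (R 4.3.3; residual df 14, prior df 2.46), with Benjamini-Hochberg adjustment over all genes and a threshold of 0.05; the other groups entered to estimate the spread. Gcsam and Cd79a were also tested with an exact permutation test. Named genes were the drivers, up to 15 called genes per direction whose groups do not overlap, the smallest p up to 10 per direction, the 8 largest differences per direction above the median gene, and up to 4 list members by p plus the highest member. Predicted, small RNA, receptor-segment, sex-linked and pancreas genes were left out of this rule. Members, lists and rule were chosen with earlier results of these data known, so no list was given a test. The method was tested on simulated data. The number of arrays limits the precision. Alternatives were other scalings, filters, probe set rules, array sets, array weights, a variance trend, a replicate block, sex and each array left out. Python 3.11.15 and pandas 2.3.3 were used for lists and promoters, and matplotlib 3.10.9 for figures.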

Additional observations from a re-analysis of the deposited data

Results flagged for a closer look

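Dixon's gap test was run on each group of 4 or 5 arrays for 68 items, 136 groups in all, and marked 10; chance marks about 1 in 20 groups. Aid-Cre replicate 4 was low for Slc7a7, at 6.80 with its nearest neighbour at 7.02, and for P2ry6, at 6.36 with its nearest neighbour at 6.73. Aid-Cre replicate 2 was high for Lcor, at 9.65 with the next array at 9.41, and Aid-Cre replicate 3 was high for Trim34a, at 9.30 with the next at 8.43.

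Among the Mb1-Cre spleens, replicate 1 was high for Apobec3 (9.66, next 8.16), for Per1 (8.60, next 7.93), for the mean of the monocyte list (9.56, next 8.92) and for the mean of the p53 target list (7.27, next 6.99). Replicate 2 was low for Mmp8 (10.21, next 10.87) and high for the mean of the exocrine pancreas list (7.21, next 4.69). Without Mb1-Cre replicate 1, Apobec3 and Per1 were called, with differences of 2.41 and 1.29. These differences had to widen, since the array left out was the Mb1-Cre array nearest to Aid-Cre for these genes.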

How the results depend on the processing

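The count of called genes, 10 (7 lower and 3 higher in Aid-Cre), depended on the arrays fitted. It was 10 with median centring (9 shared with the reported genes), 12 with quantile normalisation (9 shared; 6 lower, 6 higher), 9 with cyclic loess, 8 and 9 with filters on low values, 10 with probe sets averaged and 10 with a robust variance trend. Each probe set by itself gave 5 (4 lower, 1 higher), the 13 tumour arrays 4 (4 lower, 0 higher), a term for Y-linked signal 1 (1 lower, 0 higher), and arrays with Y-linked signal 3 (0 lower, 3 higher; 0 shared). The 9 tumour arrays alone, array weights and arrays without Y-linked signal gave 0 each (0 lower, 0 higher), with 1430, 1779 and 1814 genes at an unadjusted p under 0.05. Without both arrays high in pancreatic transcripts 2 were called (0 lower, 2 higher; 1 shared). Leaving out single arrays gave 0 to 27 (0 to 15 lower, 0 to 12 higher). It was 0 without Aid-Cre replicate 1, Aid-Cre replicate 4, Mb1-Cre replicate 4 or Mb1-Cre replicate 5, 1 without Aid-Cre replicate 3, 2 without Mb1-Cre replicate 2, 4 without Mb1-Cre replicate 3, 14 (12 lower) without Aid-Cre replicate 2 and 27 without Mb1-Cre replicate 1. Arrays with the same replicate number did not deviate together over all genes (correlations of -0.464, -0.384, 0.00259 and -0.520). Pairs with different numbers gave correlations from -0.666 to 0.613, so a smaller effect shared by arrays of the same number could not be seen this way. A replicate block on the 9 arrays gave 0 calls (0 lower, 0 higher), with 893 genes at an unadjusted limma p under 0.05. The causes were not tested.

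All 10 called genes kept their direction under every alternative that gave them a value. Reversals were seen for Gcsam (-0.11 to 0.18 over leave-one-out fits, below 0 without Aid-Cre replicate 3, Aid-Cre replicate 4 or Mb1-Cre replicate 1), for Cd79b (-0.018 with cyclic loess, -0.054 without Y-linked signal, -0.33 to 0.59 over leave-one-out fits), for Mki67 (-0.82 to 0.11 over leave-one-out fits, above 0 without Aid-Cre replicate 3), for Apol11a and Apol10a within arrays with Y-linked signal (-1.87 and -0.80), and within those without it for Kif20a (0.87), Mki67 (1.79), Cdc45 (0.75) and Klf1 (3.10).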

Other observations

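Some gene families that the named lists cover in part or not at all were looked at after their values were seen. None of their other members was called. Of 23 measured killer lectin-like receptor (Klr) genes, 17 were higher in Aid-Cre, with a median difference of 0.33. In that direction 6 did not overlap, where 1.1% of all genes do so. These counts include Klrb1c and other Klr genes of the NK and cytotoxic cell list. Klra9 measured 4.86, 4.92, 5.46 and 5.51 in Aid-Cre, against 4.66, 4.57, 3.11, 3.55 and 3.80 in Mb1-Cre. Klra17 went the other way, with a difference of -1.29 ± 0.32 (limma adjusted p = 0.271). Of 13 apolipoprotein L genes, 10 were higher in Aid-Cre, but Apol9a was lower with no overlap, by -0.57 ± 0.11 (limma adjusted p = 0.135). Of 31 C-type lectin (Clec) genes 26 were lower in Aid-Cre, and so were 7 of 8 Fc receptor genes, with a median of -0.51.

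Ighg3, the constant region of IgG3, measured 11.18, 7.74, 9.23 and 10.21 in Aid-Cre, against 12.19, 10.47, 11.84, 11.34 and 11.22 in Mb1-Cre (difference -1.82 ± 0.64, limma adjusted p = 0.439). Ighm, the constant region of IgM, ranged over 13.15 to 13.33 in Aid-Cre and 13.27 to 13.47 in Mb1-Cre, near the top of the array's scale. Slfn4, a schlafen gene of myeloid cells, had a difference of -1.99 ± 0.69 (limma adjusted p = 0.439), with 6.12 and 7.04 in Aid-Cre replicates 3 and 4. Cbx7, a Polycomb protein whose gene neighbours Apobec3, had a difference of 1.02 ± 0.30 (limma adjusted p = 0.374).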
